A study of Mus musculus with 12 samples.

Results

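Glucuronidation and sulfation enzymes attach a glucuronic acid or a sulfate group to drugs, steroids, bilirubin, thyroid hormone and phenols. The list held 10 genes chosen by symbol: the glucuronosyltransferases Ugt2b1, Ugt2b5, Ugt2b35 and Ugt2b36, the sulfotransferases Sult1a1, Sult1b1, Sult1d1 and Sult5a1, and the cofactor enzymes Ugdh and Papss2. Of these, 8 had a probe set that names a single gene, among 12393 genes of the array with such a probe set. These 8 genes were covered by 12 of the 22626 probe sets. The expression of Ugt2b35 and Ugt2b36 was not analysed here, and only their promoter windows were used. The brightest probe set over all arrays stood for its gene, and the 4 further probe sets, 3 of Papss2 and 1 of Sult1d1, are given beside it.

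Hepatocytes, the parenchymal cells of the liver, and a fraction labelled mesenchymal cells came from male C57BL/6N mice aged 12 weeks. The treated mice took up phenobarbital, a barbiturate, at 50 mg/kg per day with their drinking water over 14 days, and the control mice drank tap water. This gave 4 groups of 3 Affymetrix arrays: hepatocytes with water, hepatocytes with phenobarbital, mesenchymal cells with water and mesenchymal cells with phenobarbital. The study asks how the drug acts on the different cells of the liver. How many animals stood behind a sample is not stated, so p-values cover only the spread among samples, which may be technical, and 3 arrays in a group limit the precision. All levels are deposited log2 expression values (RMA), compared only within a probe set, so that a difference of 1 is a doubling.

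The array samples were checked against cell type markers. All 12 measured hepatocyte markers exceeded the 40th percentile of all probe sets in every hepatocyte sample, and the mean of the list was 13.43 to 13.70 there. In the mesenchymal samples, 11 of 11 Kupffer cell markers (list mean 13.57 to 14.01) and 12 of 12 sinusoidal endothelial markers (12.05 to 12.56) exceeded it in every array, but only 7 of 10 stellate cell and fibroblast markers did (7.73 to 8.42). Of the T and NK cell markers 7 of 8 exceeded it too (8.18 to 9.11), as did 2 of 2 neutrophil markers, whose mean was 11.39 in the phenobarbital sample numbered 2 and 7.16 to 9.75 in the other arrays. Of the hepatocyte markers 11 of 12 also exceeded it in every mesenchymal array (list mean 8.72 to 10.63). The fraction therefore held signal of Kupffer cells, endothelium, lymphocytes, neutrophils and hepatocyte markers beside that of stellate cells. Exceeding the percentile is a weak mark alone. In every hepatocyte water array 5 of 11 Kupffer cell markers (list mean 6.23 to 6.30) and 4 of 12 endothelial markers (6.14 to 6.23) did so too. Both water samples numbered 1 stood apart in clock genes: Dbp was at 6.21 in the hepatocytes and 6.52 in the mesenchymal cells, against 11.60 to 12.15 in the other 10 arrays. The mesenchymal phenobarbital sample numbered 1 had the highest level of all 12 hepatocyte markers among the 6 mesenchymal arrays.

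In glucuronidation, UDP-glucose dehydrogenase (Ugdh) makes UDP-glucuronate, and UDP-glucuronosyltransferases (UGTs) in the endoplasmic reticulum pass the sugar acid to their substrates. In sulfation, PAPS synthases such as Papss2 make the sulfate donor PAPS from sulfate and ATP, and cytosolic sulfotransferases (SULTs) pass the sulfate on. In liver both routes make compounds more soluble for bile and urine, and CAR, the nuclear receptor (Nr1i3) through which phenobarbital acts, is known to control some of their genes.

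The promoters of 5 members are shown because they include the genes with the widest and the narrowest gap between the cell populations described further on. Each is the RefSeq window of 300 bases (250 before and 50 after an annotated start of the gene) on GRCm38.p6, written 5′ to 3′ on the minus strand of the gene. For Sult1a1 this start lies inside the annotated gene span (chr7:126672865-126690443) and not at its outer end. They lie at chr5:86926454-86926753 (Ugt2b1), chr5:87140291-87140590 (Ugt2b5), chr5:87568957-87569256 (Sult1d1), chr7:126676369-126676668 (Sult1a1) and chr5:65435793-65436092 (Ugdh). Capitals mark every match, on either strand, to the motifs named in the next paragraph.
Ugt2b1: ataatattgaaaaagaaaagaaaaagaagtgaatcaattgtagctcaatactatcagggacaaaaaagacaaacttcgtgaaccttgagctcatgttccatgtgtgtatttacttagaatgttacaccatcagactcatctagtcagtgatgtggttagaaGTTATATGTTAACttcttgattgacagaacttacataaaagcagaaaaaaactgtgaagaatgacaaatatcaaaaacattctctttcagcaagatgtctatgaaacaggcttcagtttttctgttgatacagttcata
Ugt2b5: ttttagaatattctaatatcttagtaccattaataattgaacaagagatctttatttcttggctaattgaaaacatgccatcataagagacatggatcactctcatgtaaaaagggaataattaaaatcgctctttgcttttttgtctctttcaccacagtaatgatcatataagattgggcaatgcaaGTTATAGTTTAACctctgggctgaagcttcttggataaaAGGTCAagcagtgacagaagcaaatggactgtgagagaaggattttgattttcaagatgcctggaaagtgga
Sult1d1: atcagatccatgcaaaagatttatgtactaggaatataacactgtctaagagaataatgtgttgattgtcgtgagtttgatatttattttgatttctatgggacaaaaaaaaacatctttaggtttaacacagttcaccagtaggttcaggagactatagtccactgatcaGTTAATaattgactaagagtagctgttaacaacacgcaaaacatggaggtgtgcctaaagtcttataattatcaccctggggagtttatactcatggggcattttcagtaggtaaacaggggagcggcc
Sult1a1: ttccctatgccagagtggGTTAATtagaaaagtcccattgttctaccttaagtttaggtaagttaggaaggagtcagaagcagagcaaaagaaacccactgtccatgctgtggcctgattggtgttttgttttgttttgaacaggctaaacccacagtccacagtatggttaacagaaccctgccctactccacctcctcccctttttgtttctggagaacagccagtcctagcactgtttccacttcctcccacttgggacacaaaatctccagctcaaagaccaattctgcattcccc
Ugdh: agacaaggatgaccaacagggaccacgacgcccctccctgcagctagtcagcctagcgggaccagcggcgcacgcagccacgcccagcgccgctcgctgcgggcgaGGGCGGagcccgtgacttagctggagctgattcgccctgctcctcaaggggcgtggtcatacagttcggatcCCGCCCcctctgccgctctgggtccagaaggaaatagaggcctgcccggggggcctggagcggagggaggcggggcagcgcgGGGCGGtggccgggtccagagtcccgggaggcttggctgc

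The windows differed in base composition. GC content was 32.0% in Ugt2b1, 34.3% in Ugt2b5, 37.0% in Sult1d1, 46.3% in Sult1a1 and 71.0% in Ugdh. The median over 32851 windows of all genes was 52.7%. Of the members not shown, Ugt2b35 was at 35.7%, Ugt2b36 at 42.7% and Sult5a1 at 54.7%. The windows of Sult1b1 were at 46.7% and 41.3%, and those of Papss2 at 66.3% and 44.3%. Whether GC content goes with the gap between the populations was not tested. GTTATANNTTAAC, which resembles the HNF1 palindrome, is the stretch of 13 bases with no more than 2 differences between Ugt2b1 and Ugt2b5 that recurs in most Ugt2b windows. This stretch was picked after the windows had been seen, so its recurrence there is no test. It matched 7 of the 32851 windows (0.0213%). Of those 7 windows 6 belonged to Ugt2b genes, out of 7 Ugt2b genes with a window: Ugt2b1, Ugt2b5, Ugt2b35, Ugt2b36, Ugt2b37 and Ugt2b38, but not Ugt2b34. The seventh was that of Pklr, the liver pyruvate kinase gene. The match began 89 bases before the start in Ugt2b1 (GTTATATGTTAAC) and 61 bases before it in Ugt2b5 (GTTATAGTTTAAC). The 6 Ugt2b genes are close relatives that lie in a cluster on chromosome 5, with Ugt2a3 between Ugt2b37 and Ugt2b38. Their windows are therefore not independent.

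The nuclear receptor half-site AGGTCA was in 16.3% of all windows and in those of 5 of the 10 members: Ugt2b5 (22 bases before the start), Ugt2b35, Ugt2b36, Sult1b1 and Papss2. The repeat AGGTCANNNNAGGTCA, the spacing bound by CAR with RXR, was in 0.0152% of windows and in none of the members' windows. GTTAAT, the HNF1 half-site, was in 7.1% of windows and in those of Sult1d1 and Sult1a1, while the full palindrome GTTAATNATTAAC was in 0.00913% and in no member's. The GC box GGGCGG was in 35.7% of windows, with 3 matches in Ugdh, and was also in Papss2 and Sult5a1. In the RefSeq gene order of chromosome 5, Ugt2b1, Ugt2b35, Ugt2b36 and Ugt2b5 were neighbours, and Sult1b1 and Sult1d1 stood next to each other further along the same cluster. Each palindrome or repeat contains its own half-site, Sult1b1 and Papss2 have 2 windows each, and a match only describes the letters.

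**Figure D1:**
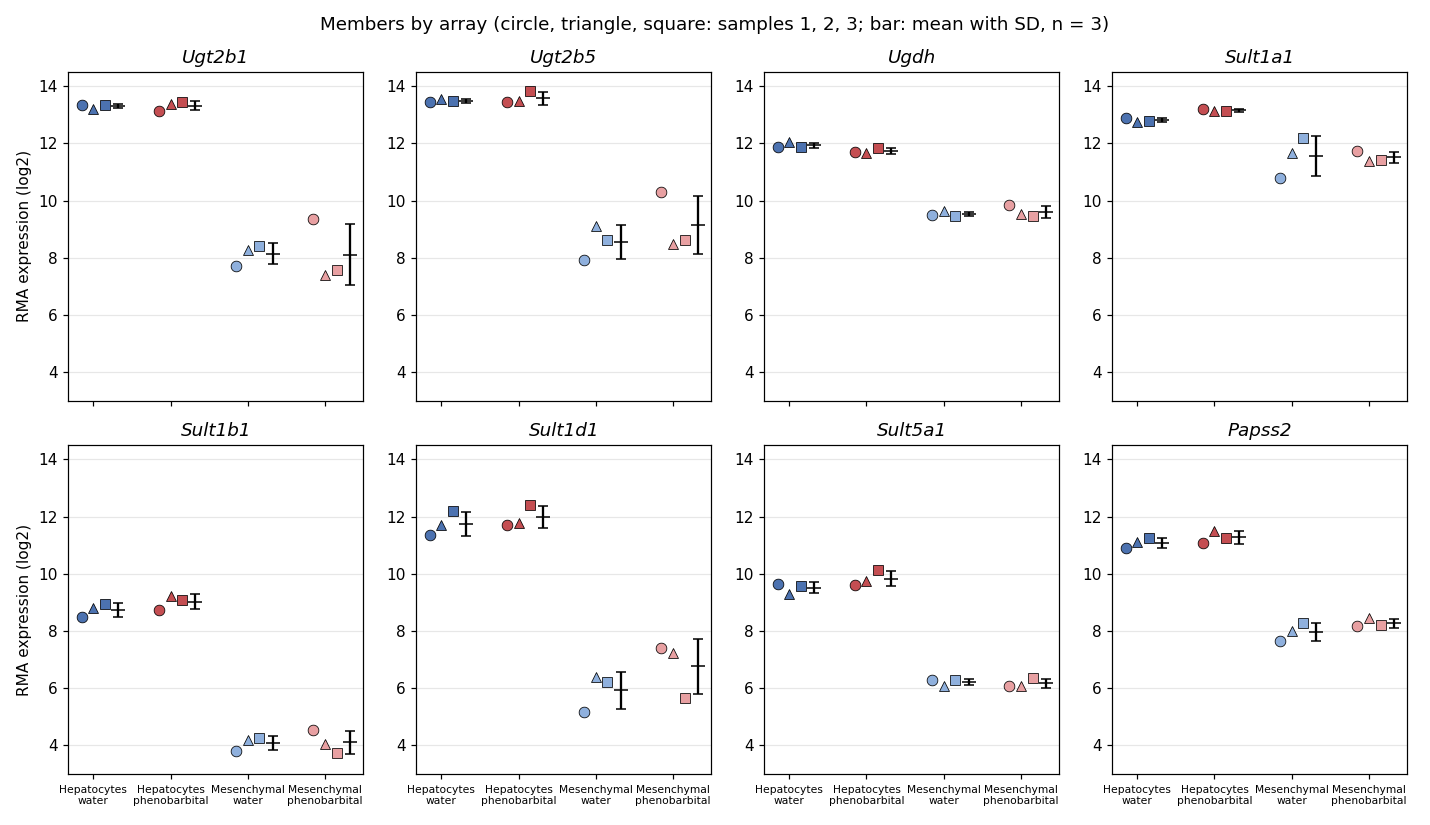
Log2 expression (RMA) of each of the 8 measured members (vertical axis) on every array of the 4 groups (horizontal axis). Circles, triangles and squares are samples 1, 2 and 3, and the bar gives the mean with SD (n = 3). In every panel all hepatocyte arrays lie above all mesenchymal arrays, and the 6 mesenchymal arrays spread widely in some panels, such as 10.80 to 12.20 for Sult1a1.

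The first question was whether phenobarbital changed these genes in hepatocytes. None of the 8 members passed the test (limma, Benjamini-Hochberg adjusted p under 0.05), while 4 of 8117 genes did (0.0493%), 3 higher and 1 lower, or 3 higher and 0 lower with array medians set equal. At an unadjusted p under 0.05 there were 2 members, Sult1a1 and Ugdh, beside 680 of all genes tested (8.38%). The same 2 of 8 members were those whose groups did not overlap (15.1% of all genes), Sult1a1 higher (6.92%) and Ugdh lower (8.14%). The difference was above 0 in 7 of 8 members, with a median of 0.21, against 49.0% of all genes and a median of -0.0038.

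The drug itself was visible in the same arrays. Cyp2b10, the P450 most strongly tied to phenobarbital, rose from 7.84 ± 0.15 to 13.36 ± 0.69 (SD, n = 3), a difference of 5.52 (SE 0.30, adjusted p = 0.00123 in limma with Benjamini-Hochberg adjustment). Cyp2c55 rose by 3.46 and Cyp2c29 by 1.49. Leaving out each array in turn, Cyp2b10 passed in 6 of 6 fits and the other two in 2 of 6 each. The plot of phenobarbital effects sets the members on that scale.

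**Figure D2:**
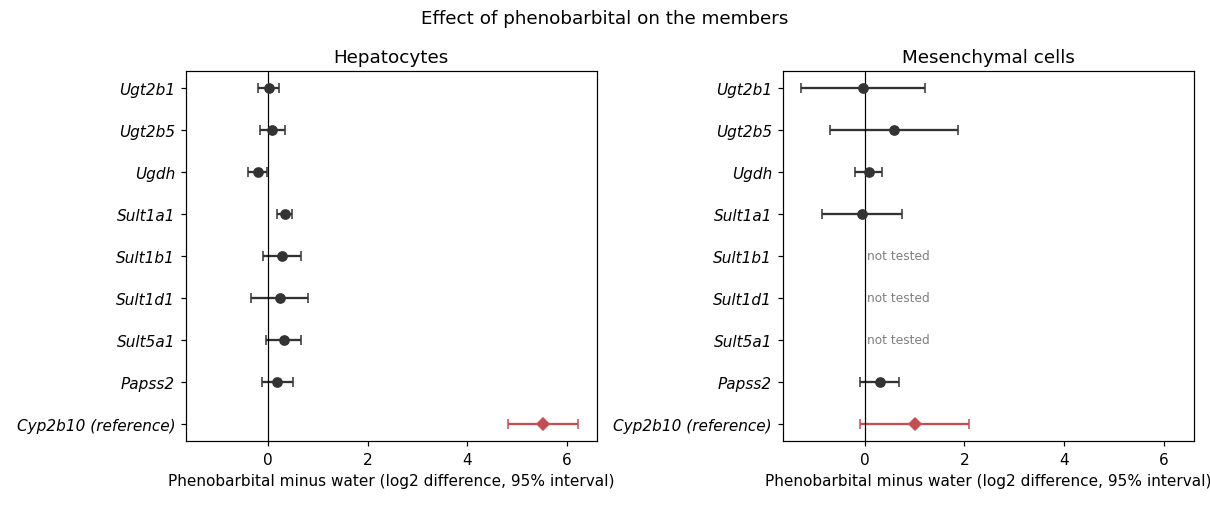
Difference between phenobarbital and water (log2, horizontal axis) of each member, with its 95% interval, in hepatocytes (left) and mesenchymal cells (right), 3 arrays in a group, and Cyp2b10 as a reference in red. In hepatocytes every member lies between -0.20 and 0.34 while Cyp2b10 lies at 5.52, and 3 members were not tested in mesenchymal cells.

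The glucuronosyltransferases were high in hepatocytes with and without the drug. Ugt2b1, which conjugates steroids and drugs, was at 13.36, 13.21 and 13.35 with water and at 13.15, 13.36 and 13.45 with phenobarbital. The groups overlapped, and the difference was 0.01 (SE 0.09, 95% interval -0.19 to 0.22). Ugt2b5, its near relative, was at 13.44, 13.56 and 13.47 with water and at 13.43, 13.47 and 13.83 with phenobarbital. Only the phenobarbital sample numbered 3 lay above the water samples, and the difference was 0.09 (SE 0.11, interval -0.17 to 0.34). For both genes the interval reached no higher than 0.34 on the log2 scale. The Ugt2b genes have similar sequences, so a probe set of 1 of them may take signal from another.

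Ugdh, the source of UDP-glucuronate, was the 1 member with a difference below 0. It was at 11.87, 12.04 and 11.87 with water and at 11.70, 11.65 and 11.84 with phenobarbital, so that every treated sample lay below every control sample. The difference was -0.20 (SE 0.08, interval -0.39 to -0.01), and its limma p of 0.0417 became 0.586 after Benjamini-Hochberg adjustment over all genes. The gap between the lowest water sample and the highest phenobarbital sample was narrow beside the spread of either group.

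The 4 sulfotransferases all had differences above 0, from 0.24 to 0.34, and none passed the test. Sult1a1, the main sulfotransferase of simple phenols, was at 12.90, 12.76 and 12.79 with water and at 13.20, 13.13 and 13.14 with phenobarbital. All 3 treated samples were higher than all 3 controls, and the spread was small (12.81 ± 0.07 against 13.15 ± 0.04, SD, n = 3). The difference was 0.34 (SE 0.06, interval 0.19 to 0.49), a fold of 1.27 with an interval of 1.14 to 1.40. Its limma p of 0.000743 ranked 24 among 8117 genes and became 0.249 after Benjamini-Hochberg adjustment, which ranged from 0.0717 to 0.75 over the alternatives tried.

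Sult5a1, a less studied sulfotransferase, was at 9.65, 9.31 and 9.58 with water and at 9.61, 9.76 and 10.12 with phenobarbital. The lowest treated sample lay within the controls, and the difference was 0.32 (SE 0.15, interval -0.04 to 0.67). Without the phenobarbital sample numbered 3, the highest, it was 0.17. Sult1b1, which sulfates thyroid hormones and phenols, was at 8.48, 8.80 and 8.95 with water and at 8.74, 9.24 and 9.09 with phenobarbital. These groups overlapped too, with a difference of 0.28 (SE 0.16, interval -0.10 to 0.66).

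Sult1d1, known for sulfating catecholamines in mice, varied most between hepatocyte samples. It was at 11.35, 11.69 and 12.18 with water and at 11.72, 11.79 and 12.42 with phenobarbital, and the difference was 0.24 (SE 0.25, interval -0.34 to 0.81). Its other probe set gave 9.69, 9.99 and 10.33 with water and 9.70, 10.35 and 10.47 with phenobarbital. On both probe sets the samples numbered 3 were the highest of their groups, and the water and phenobarbital ranges overlapped.

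Papss2, the PAPS synthase that is prominent in liver, was at 10.90, 11.10 and 11.25 with water and at 11.07, 11.50 and 11.25 with phenobarbital. The ranges overlapped, and the difference was 0.19 (SE 0.13, interval -0.12 to 0.50). On its other probe sets the means were 10.40 and 10.67, 10.07 and 10.40, and, on a probe set that lay under the 40th percentile in every array, 5.54 and 5.66, with water and phenobarbital in that order. All 4 probe sets of Papss2 thus had a mean that was higher with phenobarbital, and all 4 had overlapping groups.

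Leaving out the hepatocyte water sample numbered 1 left all 8 members below the call. Sult1a1 was then at a difference of 0.38 (adjusted p = 0.213 in limma with Benjamini-Hochberg adjustment), Sult5a1 at 0.39 and Ugdh at -0.23. Sult1d1, Papss2 and Sult1b1 shrank to 0.04, 0.10 and 0.15, since their control sample numbered 1 was the lowest of its group. Sult1d1 also came down to 0.01 without the phenobarbital sample numbered 3, and Papss2 and Sult1b1 to 0.08 and 0.17 without the phenobarbital sample numbered 2. With 1 array left out their highest values were 0.46 for Sult1d1, 0.29 for Papss2 and 0.42 for Sult1b1. Ugt2b1 and Ugt2b5 were at 0.04 and 0.06 without the water sample.

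The rest of both pathways was read from a list of 56 further genes, of which 32 were measured and 25 tested in hepatocytes. None passed the limma test at a Benjamini-Hochberg adjusted p under 0.05, and the median difference was -0.05. An unadjusted p under 0.05 was found for 5 of them, and for 8.38% of all genes tested. The widest difference was that of Gulo, the enzyme that completes ascorbate synthesis from glucuronate, at 11.02, 10.98 and 11.60 with water and 8.86, 10.37 and 10.64 with phenobarbital (difference -1.24, SE 0.43, adjusted p = 0.535), and without the phenobarbital sample numbered 1 its difference was -0.70. Sult1c2, a sulfotransferase outside the list of members, was at 7.72, 7.98 and 7.81 with water and 8.18, 8.44 and 8.61 with phenobarbital (0.58, SE 0.13, adjusted p = 0.381). The groups of neither gene overlapped, which held for 15.1% of all genes tested. Among 9 regulators tested, 0 passed and 2 had an unadjusted p under 0.05 in limma, Nfe2l2 (0.40, SE 0.16) and Nr1h4 (0.46, SE 0.18). Without the water sample numbered 1 these 2 were at 0.29 and 0.25. Nr1i3, which encodes CAR, was at 7.98, 9.57 and 9.40 with water and 8.43, 9.42 and 9.13 with phenobarbital. Its difference was 0.01 (SE 0.43), but -0.49 without the water sample numbered 1, its lowest array. Nr1i2, which encodes PXR, differed by 0.21 (SE 0.10).

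The same question in the mesenchymal cells gave no member past the test. Of the 8 measured members 5 had enough signal to be tested, and 0 passed in limma, where 0 of 8003 genes did (0.0%). At an unadjusted p under 0.05 there were 0 members, beside 232 of all genes (2.9%), and no member had groups that did not overlap (7.7% of all genes). Every adjusted p of the 5 was 0.998. The differences were -0.03 for Ugt2b1 (SE 0.52, interval -1.27 to 1.21), 0.58 for Ugt2b5 (SE 0.53, -0.70 to 1.86), 0.08 for Ugdh (SE 0.12, -0.20 to 0.36), -0.05 for Sult1a1 (SE 0.33, -0.85 to 0.76) and 0.30 for Papss2 (SE 0.17, -0.09 to 0.70). The intervals of Ugt2b1, Ugt2b5 and Sult1a1 were several times as wide as in hepatocytes, so changes of the size seen there could not be resolved.

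Single arrays stood out in this comparison. Ugt2b1 was at 7.72, 8.26 and 8.42 with water and at 9.34, 7.39 and 7.58 with phenobarbital, and Ugt2b5 at 7.94, 9.10 and 8.64 and at 10.32, 8.48 and 8.63. For both genes the phenobarbital sample numbered 1 was the highest of the 6 arrays, and it was also the sample with the highest hepatocyte markers (list mean 10.63 against 8.72 to 9.80). Of these markers 11 were tested, and all 11 had differences above 0, from 0.10 to 0.82. Their part in the values of the members was not tested. Without that sample the difference of Ugt2b5 was -0.01, that of Ugt2b1 -0.65 (SE 0.22) and that of Ugdh -0.04, still with adjusted p of 0.999 in limma (Benjamini-Hochberg).

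Sult1a1 showed another pattern in these cells. It was at 10.80, 11.67 and 12.20 with water and at 11.73, 11.38 and 11.42 with phenobarbital, so its highest and its lowest value both belonged to water samples. Without the water sample numbered 1 the difference was -0.42 (SE 0.19, adjusted p = 0.987). Papss2 was at 7.66, 7.99 and 8.27 with water and at 8.17, 8.45 and 8.20 with phenobarbital, with overlapping groups. Its difference of 0.30 was 0.15 without the water sample numbered 1, and 2 of its other probe sets gave 0.12 and 0.07. Ugdh was at 9.50, 9.63 and 9.47 with water and 9.84, 9.55 and 9.45 with phenobarbital, where the groups overlapped as well.

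The other 3 members did not exceed the 40th percentile (6.64 to 6.68) in 3 or more mesenchymal arrays and were not tested there. Sult1b1 lay at 3.72 to 4.55 and Sult5a1 at 6.07 to 6.35, below that percentile in all 6 arrays. Sult1d1 was at 5.18, 6.39 and 6.21 with water and at 7.41, 7.22 and 5.65 with phenobarbital, above the percentile in 2 phenobarbital arrays only. The deposited table holds no detection call, so whether these low values stand above background is not known. Among 18 tested genes of the wider pathway list 0 passed and 0 had an unadjusted p under 0.05 in limma, the widest being Ugt2b34 at 0.73 (SE 0.58) and Cdo1, the cysteine dioxygenase that feeds sulfate production, at 0.22 (SE 0.40). Both were highest in the phenobarbital sample numbered 1: Ugt2b34 was at 9.01 there and 7.32 and 6.84 in the other phenobarbital arrays, and Cdo1 at 9.54, 8.79 and 7.94. Without that sample the differences were 0.09 and -0.17. Cyp2b10 was at 7.18, 7.40 and 7.19 with water and 9.39, 7.82 and 7.57 with phenobarbital in these cells (difference 1.0, SE 0.45), and its difference was 0.44 without the same sample. Cyp2c29 was at 6.63, 7.44 and 7.51 with water and 11.58, 9.51 and 8.72 with phenobarbital, and these groups did not overlap. Its difference was 2.74 (SE 0.71), not called, and 1.92 without that sample. Cyp2c55 was not tested there.

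Whether the drug acted differently in the populations was tested as the mesenchymal effect minus the hepatocyte effect over all 12 arrays. None of the 8 members passed (0 of 9031 genes, 0.0%, limma), and none had an unadjusted p under 0.05 (5.45% of all genes). The reference genes did not pass either, with Cyp2b10 at -4.51, Cyp2c55 at -2.54 and Cyp2c29 at 1.25. The test thus missed even wide differences, and the lack of calls says little about the members. Sult1b1, Sult1d1 and Sult5a1 entered this test through their hepatocyte arrays, as they were too low to be tested in mesenchymal cells. Their mesenchymal values are not known to stand above background, so their values here do not measure a difference of drug effects. Sult1a1 gave -0.39 (SE 0.37, interval -1.19 to 0.42), Sult5a1 -0.37 (SE 0.20, -0.82 to 0.08) and Ugdh 0.28 (SE 0.15, -0.04 to 0.60). The wider values were less certain: Sult1d1 was at 0.60 (SE 0.64) and Ugt2b5 at 0.49 (SE 0.59). Leaving out 1 array, Sult1d1 ran from 0.22 (mesenchymal water sample 1) to 1.15 (mesenchymal phenobarbital sample 3), and Ugt2b5 was -0.09 without the mesenchymal phenobarbital sample 1. In the same way Sult1a1 was -0.76 and -0.06 without the mesenchymal water samples 1 and 3 in turn, Sult5a1 came to -0.22 without the hepatocyte phenobarbital sample 3, and Ugdh to 0.16 without the mesenchymal phenobarbital sample 1. Sult1b1 was at -0.26 (SE 0.31), Papss2 at 0.11 (SE 0.23) and Ugt2b1 at -0.05 (SE 0.57). Without both water samples numbered 1 the value of Sult1a1 was -0.80 (SE 0.21, Benjamini-Hochberg adjusted p = 0.895), and without both phenobarbital samples numbered 1 those of Ugt2b1 and Sult1b1 were -0.75 (SE 0.25) and -0.62 (SE 0.26), with adjusted p of 0.983. Of the 25 tested pathway genes 0 passed and 1 had an unadjusted p under 0.05, the widest differences being those of Gulo (0.98, SE 0.64, but 0.43 without the hepatocyte phenobarbital sample 1) and Ugt3a1 (0.49, SE 0.26, but 0.30 without the mesenchymal phenobarbital sample 1).

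Between the populations the members differed widely. With water all 8 members were lower in mesenchymal cells than in hepatocytes at a Benjamini-Hochberg adjusted p under 0.05 in limma, where 82.7% of 9031 genes passed and 40.7% passed as lower. All 8 had groups that did not overlap (41.6% of all genes did so with mesenchymal cells lower), and their median difference was -3.98 against 0.02 over all genes tested. With phenobarbital 8 of 8 were again lower (83.1% of genes passed, 40.9% as lower), with a median of -4.05. Since most genes differed between the populations, a pass says little about a member and the size of its difference says more. Sult1b1 and Sult5a1, and Sult1d1 with water, were above the 40th percentile in hepatocyte arrays only. These genes entered the test through those arrays, so their being lower is no independent result. They are still counted among the 8 and in the medians. In such bulk samples fewer cells of a type and less RNA per cell cannot be told apart.

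**Figure D3:**
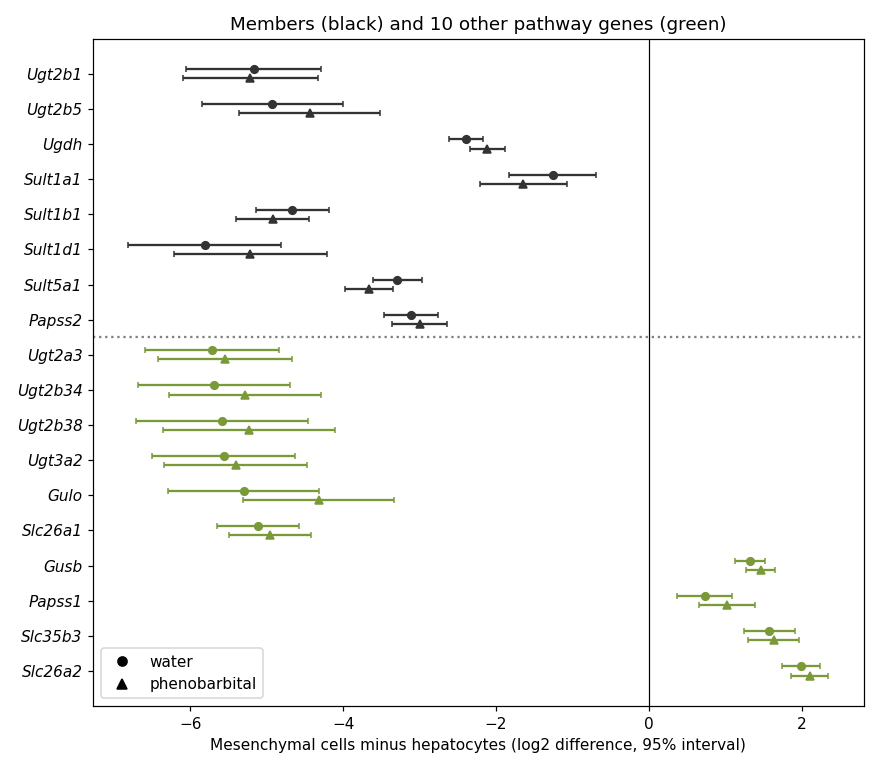
Difference between mesenchymal cells and hepatocytes (log2, horizontal axis) with its 95% interval, in water samples (circles) and phenobarbital samples (triangles), 3 arrays in a group. The 8 members are black and 10 other pathway genes green: the members span -1.26 (Sult1a1) to -5.81 (Sult1d1) with water, and Gusb, Papss1, Slc35b3 and Slc26a2 lie above 0.

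The widest gaps were those of Sult1d1 and of the glucuronosyltransferases. Sult1d1 was at 11.74 ± 0.42 in hepatocytes and 5.93 ± 0.65 in mesenchymal cells with water (SD, n = 3), a difference of -5.81 (SE 0.45, 56.2-fold lower, adjusted p = 2.23e-07). Its other probe set gave -5.61 (SE 0.26). Ugt2b1 was at 13.31 ± 0.08 and 8.14 ± 0.37, a difference of -5.17 (SE 0.40, 36.0-fold lower), and Ugt2b5 at 13.49 ± 0.06 and 8.56 ± 0.59, a difference of -4.93 (SE 0.42, 30.5-fold lower). Sult1b1 followed at 8.74 ± 0.24 and 4.08 ± 0.24, a difference of -4.67 (SE 0.22, 25.4-fold lower). The 95% intervals of these 4 members overlapped, so their order is not settled. Because Sult1b1 and Sult1d1 were under the 40th percentile in the mesenchymal water arrays, their folds are rough.

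Sult5a1 and Papss2 had smaller measured gaps. Sult5a1 was at 9.51 ± 0.18 and 6.22 ± 0.12 with water, a difference of -3.29 (SE 0.14, 9.80-fold lower), and it too was under the 40th percentile in mesenchymal cells. Papss2 was at 11.08 ± 0.18 and 7.97 ± 0.30, a difference of -3.12 (SE 0.16, 8.66-fold lower), and 2 of its other probe sets gave -3.44 (SE 0.15) and -3.50 (SE 0.12). The interval of Papss2 (-3.47 to -2.76) lay apart from those of the 4 members with wider gaps. That of Sult5a1 (-3.61 to -2.97) covers the measured values only: its mesenchymal level is not known to stand above background, so its place in the order is not settled.

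Ugdh and Sult1a1 differed least. Ugdh was at 11.93 ± 0.09 in hepatocytes and 9.53 ± 0.08 in mesenchymal cells with water (SD, n = 3), a difference of -2.40 (SE 0.10, interval -2.62 to -2.17, 5.26-fold lower). Sult1a1 was at 12.81 ± 0.07 and 11.56 ± 0.70, a difference of -1.26 (SE 0.26, interval -1.83 to -0.69, 2.39-fold lower, adjusted p = 0.000785 in limma). Those intervals of the measured values overlapped neither each other nor that of any other member. The intervals of all members in this comparison use 1 spread pooled over the 4 groups. The SD of Sult1a1 was far larger in mesenchymal cells than in hepatocytes, so its interval may be too narrow. With 1 array left out the gap ran from -1.58 to -0.88 for Sult1a1 and from -2.44 to -2.34 for Ugdh. The gap of Sult1a1 was -0.84 (SE 0.16, adjusted p = 0.00101) without both water samples numbered 1, since the mesenchymal one of them was the lowest of its group.

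With phenobarbital the gaps were alike in size. They were -5.22 for Sult1d1, -5.21 for Ugt2b1, -4.92 for Sult1b1, -4.44 for Ugt2b5, -3.66 for Sult5a1, -3.00 for Papss2, -2.12 for Ugdh and -1.64 for Sult1a1 (SE 0.26, 3.12-fold lower). Without both phenobarbital samples numbered 1, Ugt2b1, Ugt2b5 and Sult1d1 had wider gaps of -5.92, -5.10 and -5.67. Setting array medians equal shifted the median of all genes by -0.22 with water and -0.23 with phenobarbital, and all 8 members were lower in mesenchymal cells under that scaling and under equal 75th percentiles.

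On a linear scale the mesenchymal level of each member can be given as a percentage of its hepatocyte mean with the same treatment. Sult1a1 reached 24.8%, 45.1% and 65.4% in the water arrays and 37.3%, 29.3% and 30.1% in the phenobarbital arrays. Ugdh was at 18.6%, 20.3% and 18.3% and at 27.0%, 22.0% and 20.6%. Papss2 stayed between 9.30% and 14.2% and Sult5a1 between 7.38% and 10.7% in the 6 arrays. Sult1b1 lay between 2.54% and 4.49% and Sult1d1 between 1.06% and 4.22%. The mesenchymal values of Sult5a1 and Sult1b1, and of Sult1d1 in all but 2 arrays, were under the 40th percentile. Their percentages may thus reflect background. Ugt2b1 was at 2.08%, 3.04% and 3.39% with water and 6.33%, 1.64% and 1.87% with phenobarbital, and Ugt2b5 at 2.13%, 4.77% and 3.46% and at 10.4%, 2.92% and 3.24%.

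**Figure D4:**
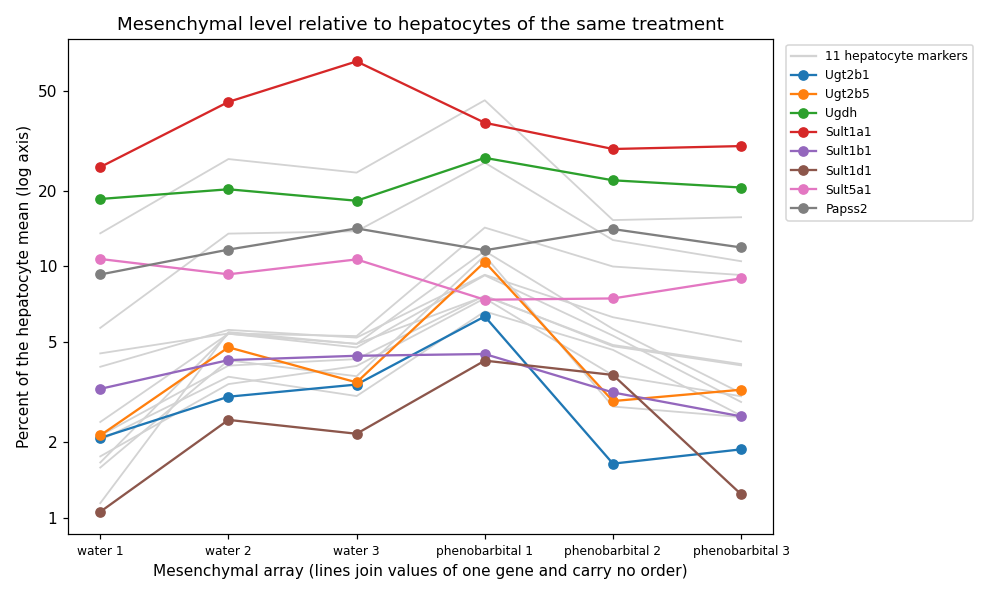
Level in each mesenchymal array as a percentage of the hepatocyte mean with the same treatment (vertical axis, log scale) for the 6 mesenchymal arrays (horizontal axis), with the 8 members in colour and 11 hepatocyte markers (all but Alb) in grey. Lines join the values of a gene and carry no order. Ugt2b5 runs among the markers in every array, and Sult1b1 does except in phenobarbital sample 1 (4.49%, lowest marker 6.63%). Sult1b1 and Sult5a1, and Sult1d1 in all but 2 arrays, are under the 40th percentile, so their percentages may reflect background. Ugt2b1 and Sult1d1 lie below the lowest marker in most arrays, such as phenobarbital sample 3 (1.87% and 1.24%, lowest marker 2.52%). Sult1a1 reaches 65.4% in a water array where these markers are at 3.05% to 23.6%.

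The hepatocyte markers themselves were at medians of 2.27%, 5.41% and 4.92% in the mesenchymal water arrays and 10.2%, 5.48% and 4.07% in the phenobarbital arrays. Without Alb the 11 other markers ran from 1.15% to 45.8%, the highest being Ttr. Alb, Ttr and Apoa1 lay near the top of the scale in hepatocytes with water (means of 15.04, 14.93 and 14.79, with array maxima of 15.10 to 15.11), so the percentages of all 3 are uncertain. All 12 markers were highest in the phenobarbital sample numbered 1 and lowest in the water sample numbered 1, and 5 of the 8 members were highest and 4 lowest in the same samples. Sult1a1 was highest in the water sample numbered 3 instead, and its percentage was above that of every marker but Alb in each array except the phenobarbital sample numbered 1, where Ttr, with the limit just given, was at 45.8%. The part of hepatocyte RNA in the mesenchymal values of the members was not tested.

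The other genes of both pathways did not all share the direction of the members. Of 25 tested with water, 16 were lower in mesenchymal cells, 6 higher and 3 not called, and with phenobarbital the counts were the same, 16, 6 and 3. All 6 other glucuronosyltransferases tested were lower, with a median of -5.58. Among them Ugt2a3, Ugt2b34 and Ugt2b38, relatives of the Ugt2b members, were at -5.71 (SE 0.40), -5.69 (SE 0.45) and -5.59 (SE 0.51), and Ugt3a2, of a family that uses other sugars, at -5.56 (SE 0.43). Gulo was at -5.30 (SE 0.45) and the sulfate transporter gene Slc26a1 at -5.12 (SE 0.25). Sult1c2, the 1 other sulfotransferase tested of 7 measured, was at -2.10.

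The 6 higher genes were named after their values were seen. With water 3 of the 9 genes of PAPS and sulfate supply were higher, 4 lower and 2 not called, and of 2 conjugate hydrolysis genes 1 was higher and 1, Arsa, not called (0.17). The sulfate transporter gene Slc26a2 was 1.99 higher in mesenchymal cells (SE 0.11) and the Golgi PAPS transporter gene Slc35b3 1.58 (SE 0.15), while the other such gene, Slc35b2, was not called (-0.25). The lysosomal glucuronidase gene Gusb was 1.32 higher (SE 0.09) and Uxs1, which turns UDP-glucuronate into UDP-xylose, 1.07 (SE 0.17). Akr1a1, which reduces glucuronate, was 0.33 higher (SE 0.06). Papss1, the other PAPS synthase, was at 9.28, 8.65 and 8.85 in hepatocytes and at 9.59, 9.70 and 9.67 in mesenchymal cells with water, 0.73 higher (SE 0.17, adjusted p = 0.00158 in limma), where Papss2 had a difference of -3.12. The difference between Papss1 and Papss2 was itself not tested.

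Of the 9 regulators tested, 5 were lower in mesenchymal cells with water, among them Nr1i3 (-4.04), Nr1i2 (-3.78) and Hnf4a (-4.36), a transcription factor of hepatocyte identity. The oxidative stress factor gene Nfe2l2 was 1.82 higher, and Ahr, which encodes the dioxin receptor, 0.82 higher, though Ahr passed in only 5 of the 12 fits that left out 1 array, and was between 0.62 and 1.08 in them. Rxra, the partner gene of CAR, differed by -0.04 and was not called.

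Last, the gene with the most similar profile was found for each member, as the smallest root mean square difference of gene-centred log2 values over the 12 arrays among 9023 other genes. It was Adtrp for Ugt2b1 (0.17), Cyp2f2 for Ugt2b5 (0.17), Ccdc58 for Ugdh (0.10) and Eci2 for Sult1a1 (0.22). For Sult1b1 it was Pbld1 (0.19), for Sult1d1 Proz (0.29), for Sult5a1 Gnpnat1 (0.21) and for Papss2 Prnp (0.15). No member was the nearest counterpart of another here, because members were not among the candidates. The 12 arrays share the gap between the populations, and the likeness is a description only.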

How the data were processed

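Total RNA of each sample was amplified, labelled and hybridised to 1 Affymetrix 3′ array, per the labels' protocols. The deposited values are log2 expression of 22626 probe sets on 12 arrays, made by the authors with RMA per the submitters' processing notes, its version and software not given in the sources used here. RMA gives all arrays a common distribution, so differences are relative to the bulk of probe sets. Values ran from 2.79 to 15.2 with array medians of 7.19 to 7.44. Arrays of a group correlated at 0.989 to 0.996 (r over all probe sets), no pair was identical, and no batch is given.

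Symbols came from the platform annotation. Of the probe sets, 20380 had 1 symbol, 691 several and 1555 none, and those with several or none named no gene. Linear models were fitted with limma 3.58.1 (R 4.3.3), using lmFit and eBayes with an intensity trend, and were tested on simulated data. A gene entered a test if 3 or more of the fitted arrays had it above their 40th percentile, and was called at a Benjamini-Hochberg adjusted p under 0.05 over all genes tested. Groups came from the labels. Drug effects used the 6 arrays of a population, and the other comparisons all 12. The comparisons share groups of samples.

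Sample numbers were checked as pairs by correlating deviations from the group means. Between hepatocytes and mesenchymal cells with water r was 0.197, 0.175 and 0.149, and each sample matched its own number best, so a fit with the number as a block was an alternative. Other alternatives changed the filter, scaling, probe set rule, test and samples. Leaving out both samples numbered 1 of a treatment was added after seeing the data.

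The members, the lists of pathway genes, regulators and markers, and the tests were chosen with earlier results of these data known. All members were named. Of the pathway genes, those that passed were named, up to 6 by size, or else the 2 with the widest difference. The 6 pathway genes higher in mesenchymal cells and the motif GTTATANNTTAAC were chosen after their values or letters were seen. Promoter windows came from RefSeq (GRCm38.p6).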

Additional observations from a re-analysis of the deposited data

How the results depend on the processing

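None of 103 alternative counts of called members differed from the counts reported. Of 775 alternative values of single members, 751 kept the direction and the side of the threshold, and 24 reversed, all of them differences that were not called. Leaving out 1 array at a time, the drug effect in hepatocytes ran from -0.051 to 0.10 for Ugt2b1 and from -0.042 to 0.16 for Ugt2b5. In mesenchymal cells it ran from -0.65 to 0.33 for Ugt2b1, -0.007 to 0.91 for Ugt2b5, -0.035 to 0.16 for Ugdh and -0.42 to 0.28 for Sult1a1, and it was -0.011 for Ugdh with array weights. The difference of the effects ran from -0.66 to 0.31 for Ugt2b1, -0.093 to 0.83 for Ugt2b5 and -0.043 to 0.26 for Papss2. It was -0.12 for Papss2 with the mean of probe sets and -0.17 for Ugt2b5 without both phenobarbital samples numbered 1. Among other genes the drug effect ran from -0.49 to 0.30 for Nr1i3 in hepatocytes and from -0.17 to 0.63 for Cdo1 in mesenchymal cells. The cause was not tested. The replicate block changed none of 37 member calls. For drug effects it joined treated and control samples of the same number, which come from different mice. None of these matched its own number best, so the block is no check of the drug effects. With it Sult1a1 in hepatocytes stayed at 0.34 with a limma Benjamini-Hochberg adjusted p of 0.445. Drug and water samples of the same number correlated at -0.276 to 0.143, and hepatocytes and mesenchymal cells with phenobarbital at -0.03 to 0.06. Genes called in hepatocytes numbered 4, but 8 with every probe set as a feature, 1 with all 12 arrays in the fit, and 1, 1 and 2 without water sample 2, phenobarbital sample 1 or phenobarbital sample 2. In the difference of effects 0 became 1 with array weights, without the hepatocyte phenobarbital sample 3, without the mesenchymal phenobarbital sample 1, and without both phenobarbital samples numbered 1. Between populations 7470 (water) and 7503 (phenobarbital) became 12680 and 12736 with every probe set as a feature, where more features were tested. Low signal limits Sult1b1, Sult1d1 and Sult5a1 in mesenchymal cells.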
